A study of Mus musculus with 12 samples.

Results

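Transcripts of 9 myelin and oligodendrocyte genes were followed in 12 libraries of mouse retina. The genes were Mobp, Mbp, Mag, Mal, Cldn11, Mog, Cnp, Ermn and Ugt8a. They were taken from the deposited count table by their symbols. All 9 were found among its 35976 genes, and each was among the 24484 genes with at least 1 count. The 9 names were selected on measured values of these same libraries. The sources do not state which values these were. It was inferred that they were the low levels in the other groups compared with WT normoxia, and so the 9 genes were tested only in the comparisons that leave WT normoxia out.

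Oxygen-induced retinopathy (OIR) is a mouse model in which a growing retina loses vessels in high oxygen and becomes hypoxic once it returns to room air. The study labelled 4 groups of 3 retinal libraries each, namely WT and Casp1 KO retinas, each in normoxia and in OIR. The WT pups were C57BL/6 and their retinas were taken at postnatal day 15. The OIR pups had been kept in 75% oxygen from postnatal day 7 to 12 and then for 3 days in room air, and the normoxic pups stayed at 21% oxygen. The labels say that Casp1 KO mice lack caspase-1, an inflammatory protease, and that their OIR retinas were also taken 3 days after the high oxygen. The age of these pups, the oxygen level, the background strain and the deleted part of Casp1 are not given in the sources used here. How many animals each library holds is not given either, so p-values measure only the spread between these libraries.

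Total counts ran from 3391203 to 5657873 in 11 libraries and reached 22815830 in WT normoxia replicate 2. A count of 0 allowed a level of up to 0.134 CPM (counts scaled to a common library total) in that library and up to 0.871 CPM in the shallowest, for counting error only. The replicates of WT OIR agreed least, since replicate 3 differed from replicates 1 and 2 by a chi-square of 15.2 and 14.2 per degree of freedom, against 5.41 between those 2. Casp1 itself had 0 to 3 counts in the libraries labelled WT and 10 to 45 in those labelled Casp1 KO. That goes against a loss of the transcript, and it is not known here whether the reads lie outside the deleted part. These counts do not show whether the genotype labels were exchanged, so each genotype difference is one between labels. Rod genes, which define the retina, summed to between 38189 and 45697 CPM in every library.

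Oligodendrocytes wrap axons of the central nervous system in myelin, a stack of lipid-rich membrane held together by a few abundant proteins. Mbp and Mobp sit on the inner face of the compact membrane, Mag, Mog and Cldn11 act at its surfaces and edges, and Mal travels in its lipid domains. Cnp and Ermn belong to the cytoplasmic side, and Ugt8a makes the galactolipids of the sheath. In the mouse, axons of retinal ganglion cells carry no myelin inside the eye and become myelinated in the optic nerve, where the oligodendrocytes lie.

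RefSeq start-site windows were matched for 8 of the 9 genes, in the table built on GRCm38.p6. Each window holds the 250 bases before the start. Promoters are shown for Mobp, Mag and Cldn11, 3 genes that were far lower in every other group than in WT normoxia, and for Ermn, whose WT normoxia libraries overlapped each other group. The capitals mark, on either strand, the letters ACAAAG or ACAATG, a core recognised by SOX factors, and CTGGNAC, searched with any base at N. The latter is a loose pattern for the core of the myelin factor MYRF, and is called a MYRF match here. No marked SOX match overlapped a MYRF match. The Mobp window is chr9:120149492-120149741 on the plus strand, and that of Mag is chr7:30914864-30915113 on the minus strand. The Cldn11 window is chr3:31149670-31149919 on the plus strand, and that of Ermn is chr2:58052865-58053114 on the minus strand.
Mobp: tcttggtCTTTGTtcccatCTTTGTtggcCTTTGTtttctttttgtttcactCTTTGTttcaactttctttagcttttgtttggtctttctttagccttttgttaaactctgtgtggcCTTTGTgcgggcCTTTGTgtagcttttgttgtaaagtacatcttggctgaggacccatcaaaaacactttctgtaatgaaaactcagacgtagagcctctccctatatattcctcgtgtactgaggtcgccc
Mag: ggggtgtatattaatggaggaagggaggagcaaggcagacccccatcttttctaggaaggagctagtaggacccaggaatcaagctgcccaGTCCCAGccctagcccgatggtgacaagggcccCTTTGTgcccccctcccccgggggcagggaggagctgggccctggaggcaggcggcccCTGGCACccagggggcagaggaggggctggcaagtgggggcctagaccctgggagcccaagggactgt
Cldn11: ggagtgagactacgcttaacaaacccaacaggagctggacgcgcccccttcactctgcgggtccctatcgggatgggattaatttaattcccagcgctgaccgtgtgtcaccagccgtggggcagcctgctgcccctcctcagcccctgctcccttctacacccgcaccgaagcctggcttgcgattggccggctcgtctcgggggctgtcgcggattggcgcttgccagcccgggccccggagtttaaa
Ermn: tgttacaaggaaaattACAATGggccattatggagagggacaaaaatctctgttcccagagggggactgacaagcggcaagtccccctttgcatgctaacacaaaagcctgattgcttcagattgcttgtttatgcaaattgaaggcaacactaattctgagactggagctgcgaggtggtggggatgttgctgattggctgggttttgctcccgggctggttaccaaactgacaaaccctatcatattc

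The Mobp window held 6 SOX matches, the Mag window 1 SOX and 2 MYRF matches, the Ermn window 1 SOX match and the Cldn11 window 0 of either. Over the 8 windows, 4 held a SOX match and 3 a MYRF match. Among 27025 promoters of the same length, 25.48% and 15.95% held them. A match is a description of the letters and not of binding.

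In GENCODE vM21 (GRCm38), Mobp lies on chromosome 9 from 120149707 to 120181484 and Mag on chromosome 7 from 30899176 to 30914873. Cldn11 lies on chromosome 3 from 31149920 to 31164324, and Mal on chromosome 2 from 127633226 to 127656695. Exons of Cnp overlap those of Dnajc7, and exons of Ermn those of Galnt5, in each case on the other strand. The strand setting of the counting is not given, so reads of such pairs could be assigned uncertainly. Dnajc7 had 134 to 186 CPM in the 12 libraries, and Galnt5 had at most 4 counts in any of them. Gm38642, which overlaps Mobp on the same strand, had 0 counts in all 12.

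Of the 9 genes, 7 had a mean level in each of the other 3 groups at 37.7% or less of that in WT normoxia, while Cnp stayed at 52.0% or above and Ermn at 90.7% or above. The members' summed level was 226 CPM ± 17.6 (SD, n = 3) in WT normoxia, 76.8 ± 7.85 in WT OIR, 54.8 ± 7.20 in Casp1 KO normoxia and 66.8 ± 6.45 in Casp1 KO OIR. In these bulk samples, fewer cells of a type and less RNA per cell cannot be told apart. The levels were compared only within a gene.

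**Figure D1:**
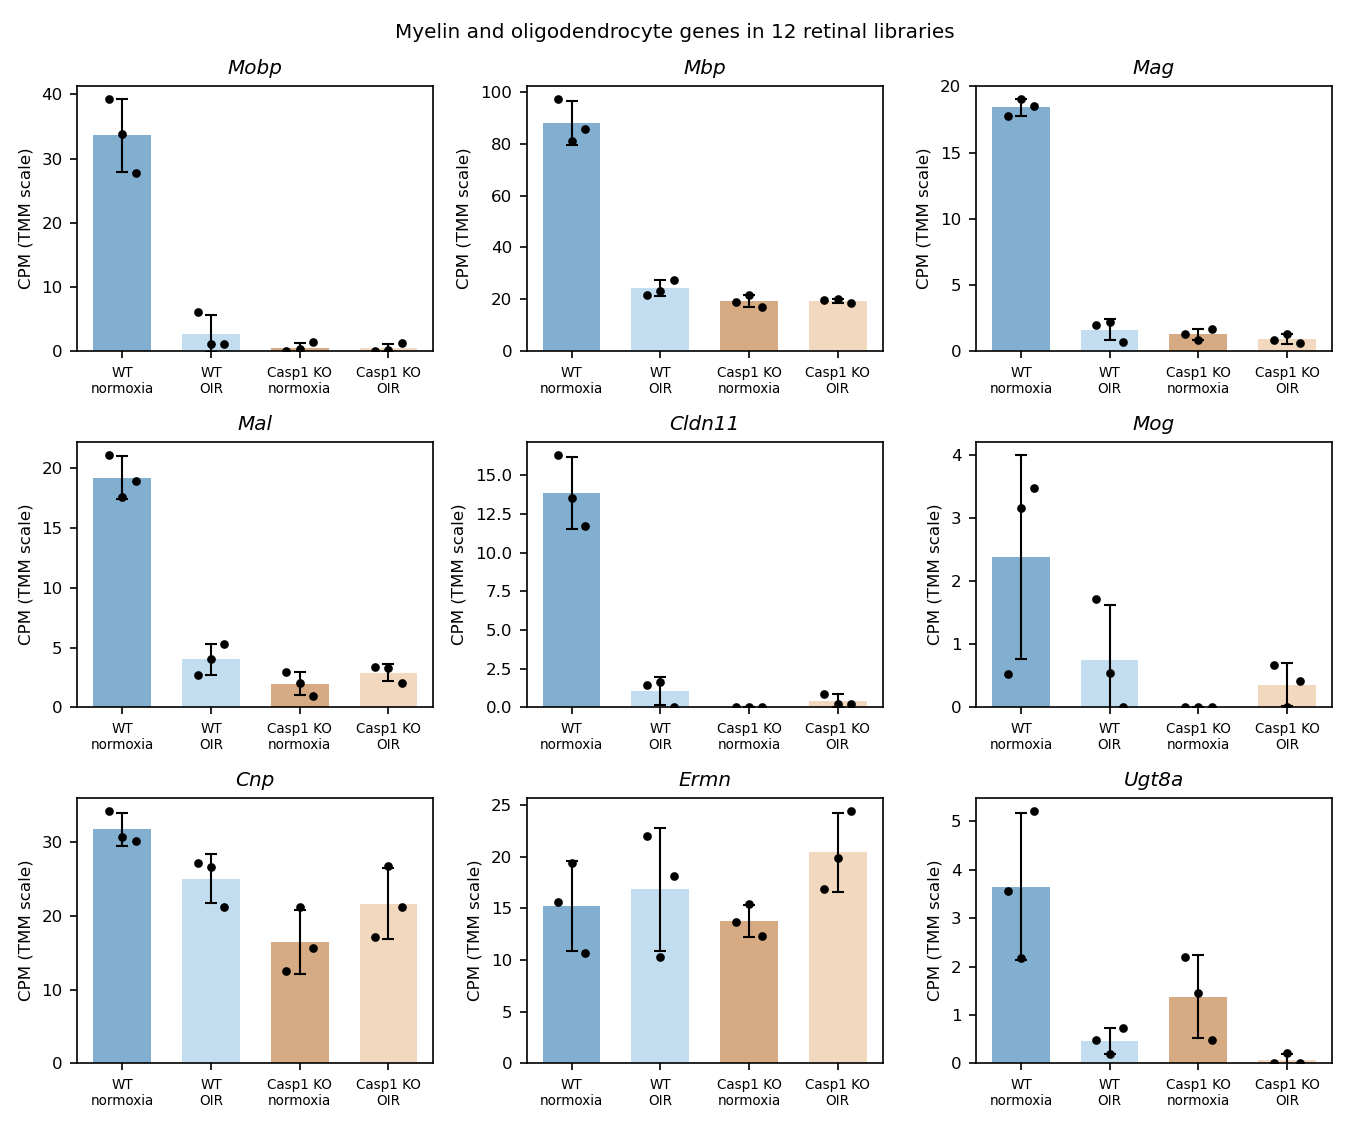
Levels of the 9 genes in each library, in CPM on a linear axis for the 4 groups. Points are libraries, bars the mean and error bars the SD of 3. The WT normoxia libraries of Mobp, Mbp, Mag, Mal, Cldn11 and Cnp lie above the 9 other libraries, and those of Ermn do not.

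Mbp, the most studied structural protein of compact myelin, had 97.3, 80.9 and 85.5 CPM in WT normoxia and 21.8, 23.4 and 27.6 CPM in WT OIR. In the libraries labelled Casp1 KO it had 18.96, 21.8 and 17.1 CPM in normoxia and 19.8, 20.1 and 18.5 CPM in OIR. The 3 WT normoxia libraries stood apart from the other 9, which all lay between 17.1 and 27.6 CPM. The fitted log2 difference was -1.86 ± 0.18 (SE) for OIR against normoxia in WT, and -2.18 ± 0.17 for the label Casp1 KO against WT in normoxia. Both describe the values on which the genes were selected and were not tested.

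Mobp showed a wider gap between the groups, in both CPM and reads. It had 39.3, 33.8 and 27.8 CPM in WT normoxia, from 221, 760 and 128 counts. WT OIR had 6.12, 1.10 and 1.09 CPM, from 25, 6 and 6 counts, so its replicate 1 stood above the other two. The libraries labelled Casp1 KO had 0, 0.290 and 1.45 CPM in normoxia and 0, 0.219 and 1.23 CPM in OIR. These are counts of 0 to 6 in each library, and the groups labelled Casp1 KO overlapped almost entirely. The fitted log2 difference from WT normoxia was -3.71 ± 0.33 in WT OIR and -5.92 ± 0.41 in Casp1 KO normoxia. It was -4.93 in WT OIR without replicate 1, and -8.04 in Casp1 KO normoxia without its replicate 3.

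Mag, an adhesion protein on the inner turn of the sheath that faces the axon, had 17.8, 19.05 and 18.5 CPM in WT normoxia. It had 1.96, 2.21 and 0.727 CPM in WT OIR, 1.28, 0.871 and 1.69 CPM in Casp1 KO normoxia, and 0.889, 1.31 and 0.617 CPM in Casp1 KO OIR. The WT normoxia libraries differed from each other by no more than 1.07-fold, and the highest of the others had 2.21 CPM. The fitted log2 difference from WT normoxia was -3.52 ± 0.43 in WT OIR and -3.81 ± 0.43 in Casp1 KO normoxia.

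Mal, a small membrane protein of myelin lipid domains, had 21.1, 17.6 and 18.9 CPM in WT normoxia and 2.69, 4.05 and 5.27 CPM in WT OIR. With the label Casp1 KO it had 2.92, 2.03 and 0.966 CPM in normoxia and 3.34, 3.28 and 2.06 CPM in OIR. The 3 lower groups overlapped. The fitted log2 difference from WT normoxia was -2.25 ± 0.36 in WT OIR and -3.22 ± 0.40 in Casp1 KO normoxia.

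Cldn11, the claudin of the tight junctions in central myelin, had 16.3, 13.5 and 11.7 CPM in WT normoxia. WT OIR had 1.47, 1.66 and 0 CPM, and the libraries labelled Casp1 KO had 0 in all 3 of normoxia and 0.889, 0.219 and 0.206 CPM in OIR. No library outside WT normoxia exceeded 1.66 CPM. The fitted log2 difference in WT OIR was -3.77 ± 0.51, and Cldn11 was at least 59.9-fold lower in Casp1 KO normoxia, against 3 counts over the group. Mog, a surface protein of the outermost layer, was low in every library. It had 0.533, 3.16 and 3.48 CPM in WT normoxia, 1.71, 0.552 and 0 CPM in WT OIR, 0 in all 3 of Casp1 KO normoxia, and 0.667, 0 and 0.411 CPM in Casp1 KO OIR. WT normoxia and WT OIR overlapped in Mog, and Casp1 KO normoxia was at least 11.99-fold below WT normoxia.

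Ugt8a, the galactosyltransferase that makes the main glycolipids of myelin, had 3.55, 2.18 and 5.22 CPM in WT normoxia and 0.490, 0.184 and 0.727 CPM in WT OIR. Its levels in the libraries labelled Casp1 KO were 2.19, 1.45 and 0.483 CPM in normoxia and 0, 0.219 and 0 CPM in OIR. In Ugt8a alone of the 9 genes, the 3 libraries of Casp1 KO normoxia averaged above those of WT OIR by more than the SD of either group, and their lowest library was within the range of WT OIR. The fitted log2 difference from WT normoxia was -2.91 ± 0.97 in WT OIR and -1.34 ± 0.78 in Casp1 KO normoxia.

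Cnp, an enzyme that keeps the cytoplasmic channels of the sheath open, had 34.3, 30.7 and 30.2 CPM in WT normoxia and 27.2, 26.7 and 21.3 CPM in WT OIR. With the label Casp1 KO it had 12.6, 21.2 and 15.7 CPM in normoxia and 17.1, 26.7 and 21.2 CPM in OIR. The WT normoxia libraries were the highest, and WT OIR lay just above Casp1 KO normoxia. Relative to WT normoxia the fitted log2 difference was -0.35 ± 0.22 in WT OIR and -0.96 ± 0.23 in Casp1 KO normoxia. Ermn, an actin-binding protein of the outer cytoplasmic lip, had 15.6, 19.4 and 10.7 CPM in WT normoxia and 22.04, 10.3 and 18.2 CPM in WT OIR. Casp1 KO normoxia had 13.7, 15.4 and 12.3 CPM of it, and Casp1 KO OIR 16.9, 19.9 and 24.5 CPM. In Ermn WT normoxia overlapped each of the other groups, and Casp1 KO OIR lay above Casp1 KO normoxia without overlap. Its fitted log2 differences from WT normoxia were 0.10 ± 0.29 in WT OIR and -0.17 ± 0.29 in Casp1 KO normoxia. The sign of the Ermn differences changed when a library was left out, from -0.13 to 0.37 in WT OIR and from -0.35 to 0.07 in Casp1 KO normoxia.

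Over the 9 genes, the median log2 difference was -2.25 for OIR against normoxia in WT, where the median of all genes was 0.04, and -3.22 for the label Casp1 KO against WT in normoxia, where it was 0.01. The medians were the same with Cldn11 and Mog at their bounds. Of all genes, 2.29% were called lower and 1.58% higher in the first comparison, and 0.56% and 0.476% in the second, by edgeR's quasi-likelihood test at an adjusted p under 0.05. The 3 WT normoxia libraries lay above all 9 others in 6 of the 9 genes and in 1.57% of all genes. Both comparisons share the WT normoxia libraries and the genes were selected on such values, so nothing is read from these counts. WT normoxia replicates 1 and 3, with 5631795 and 4617509 counts, had depths like those of the other groups and levels like those of the deep replicate 2 in Mobp, Mbp, Mag, Mal, Cldn11 and Cnp.

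**Figure D2:**
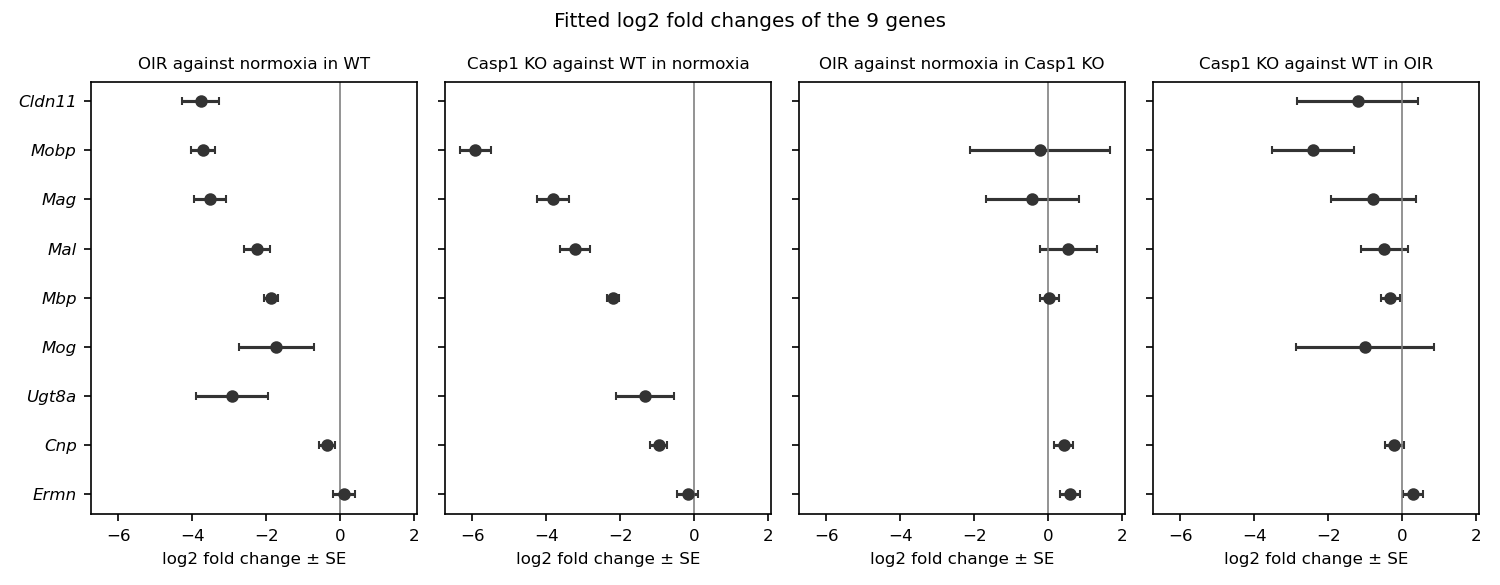
Fitted log2 fold changes of the 9 genes with SE in 4 comparisons, with 0 as no difference. Where a group held 0 counts, or no more than 3 in all, no point is drawn. In the 2 panels that use WT normoxia the points of Mobp, Mag, Mal and Mbp lie at -1.86 or below. In the other 2 panels those of Mbp lie at 0.03 and -0.32, and those of Mag at -0.43 and -0.78.

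Comparisons without the WT normoxia libraries could be tested. For OIR against normoxia within the libraries labelled Casp1 KO, 0 of the 9 genes were called, against 2.03% of all genes lower and 2.61% higher. At an unadjusted p under 0.05 there were 2 of the 9 in edgeR's quasi-likelihood test, where 13.6% of all genes passed, and 1 in DESeq2, where 10.8% did. For Mbp the log2 difference was 0.03 ± 0.25 (SE), with a 95% interval from -0.47 to 0.53 and an adjusted p = 0.973. For Cnp it was 0.42 ± 0.26, with an interval from -0.08 to 0.93 and an adjusted p = 0.486. The intervals of Mobp, from -3.92 to 3.49, and of Mag, from -2.89 to 2.04, were too wide at these counts to show differences of several-fold. Ermn had a log2 difference of 0.58 ± 0.27 and an adjusted p = 0.289. Ugt8a had 1 count in the OIR libraries and 19 in normoxia, a ratio of 0.0494 with a 95% counting interval from 0.00119 to 0.311, and its adjusted p was 0.354. Cldn11 and Mog had 0 counts in normoxia, and their levels in OIR were at least 1.88-fold and 1.56-fold higher, with an adjusted p of 0.523 and 0.552. The median log2 difference of the 9 genes was 0.42, and that of all genes 0.00.

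For the label Casp1 KO against WT in OIR, 0 of the 9 genes were called as well, where 0.312% of all genes were lower and 0.263% higher. At an unadjusted p under 0.05 there was 1 of the 9, in edgeR's quasi-likelihood test and in DESeq2 alike, where 8.36% and 5.84% of all genes passed. This was Mobp, at a log2 difference of -2.41 ± 1.10 and an adjusted p = 0.485. In a fit to all 12 libraries it was -2.33 with an adjusted p = 0.0197, but that fit includes the WT normoxia libraries, on which the genes were selected, and nothing is read from its call. Without WT OIR replicate 1, which held 25 of the group's reads, the difference was -1.13. For Mbp the difference was -0.32 ± 0.26, with an interval from -0.82 to 0.18 and an adjusted p = 0.733. Mag and Mal differed by -0.78 ± 1.15 and -0.48 ± 0.63, and Ugt8a, with 1 count against 7, had a ratio of 0.154 with a counting interval from 0.00342 to 1.20. The median was -0.78, and that of all genes -0.04. Without WT OIR replicate 3, the library that agreed least with its group, 0 of the 9 were called and the difference of Mbp was -0.20.

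Other genes of the lineage were taken from lists of 56 genes that hold further sheath proteins, lipid enzymes, transcription factors, precursor genes and other genes of mature oligodendrocytes. Among 53 of them tested for OIR against normoxia in WT, 6 fell and 2 rose, against 2.29% and 1.58% of all genes. Olig2, the transcription factor that founds the lineage, had 11, 98 and 15 counts in WT normoxia and 0 in all 3 libraries of WT OIR, at least 18.98-fold lower with an adjusted p = 0.000305. Pllp, a proteolipid of the sheath, fell by 2.29 ± 0.71 on the log2 scale with an adjusted p = 0.0356, a call that 6 of 13 alternatives kept. Cntn2, an adhesion molecule of axons and glia that also marks neurons, fell by 1.26 ± 0.33, C1ql1 by 0.999 ± 0.15, Enpp2 by 0.77 ± 0.14 and Sept4 by 0.55 ± 0.14. Vcan, a matrix proteoglycan of precursors and other cells, rose by 2.10 ± 0.30 and Plekhb1 by 0.75 ± 0.12. The median of the 53 was -0.31. Without WT normoxia replicate 3 the call of Cntn2 was lost, at an adjusted p = 0.278, and that of Sept4 was lost without WT OIR replicate 2 or WT normoxia replicate 1, at up to 0.142.

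For the label Casp1 KO against WT in normoxia, 4 of 54 tested genes were lower and 0 higher, against 0.56% and 0.476% of all genes, with a median of -0.47, or -0.48 with genes at 0 placed at their bounds. Olig2 had 0 counts in all 3, at least 16.5-fold lower, with an adjusted p = 0.000820. Bcas1, a gene of newly formed oligodendrocytes, had 16, 138 and 24 counts in WT normoxia and 0, 0 and 3 in Casp1 KO normoxia, a ratio of 0.0422 with a counting interval from 0.00862 to 0.1253 and an adjusted p = 0.00102. C1ql1 and Sept4 differed by -0.46 ± 0.12 and -0.37 ± 0.10. The call of C1ql1 was kept under 10 of 14 alternatives, and that of Sept4, at an adjusted p = 0.0455, under 3 of 14. The calls of Olig2 and Bcas1 were lost without the deep WT normoxia replicate 2, at an adjusted p = 0.0750 and 0.0635, and 1 of the 56 genes was then called. Without WT normoxia replicate 1, or without Casp1 KO normoxia replicate 2 or 3, 2 were called.

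**Figure D3:**
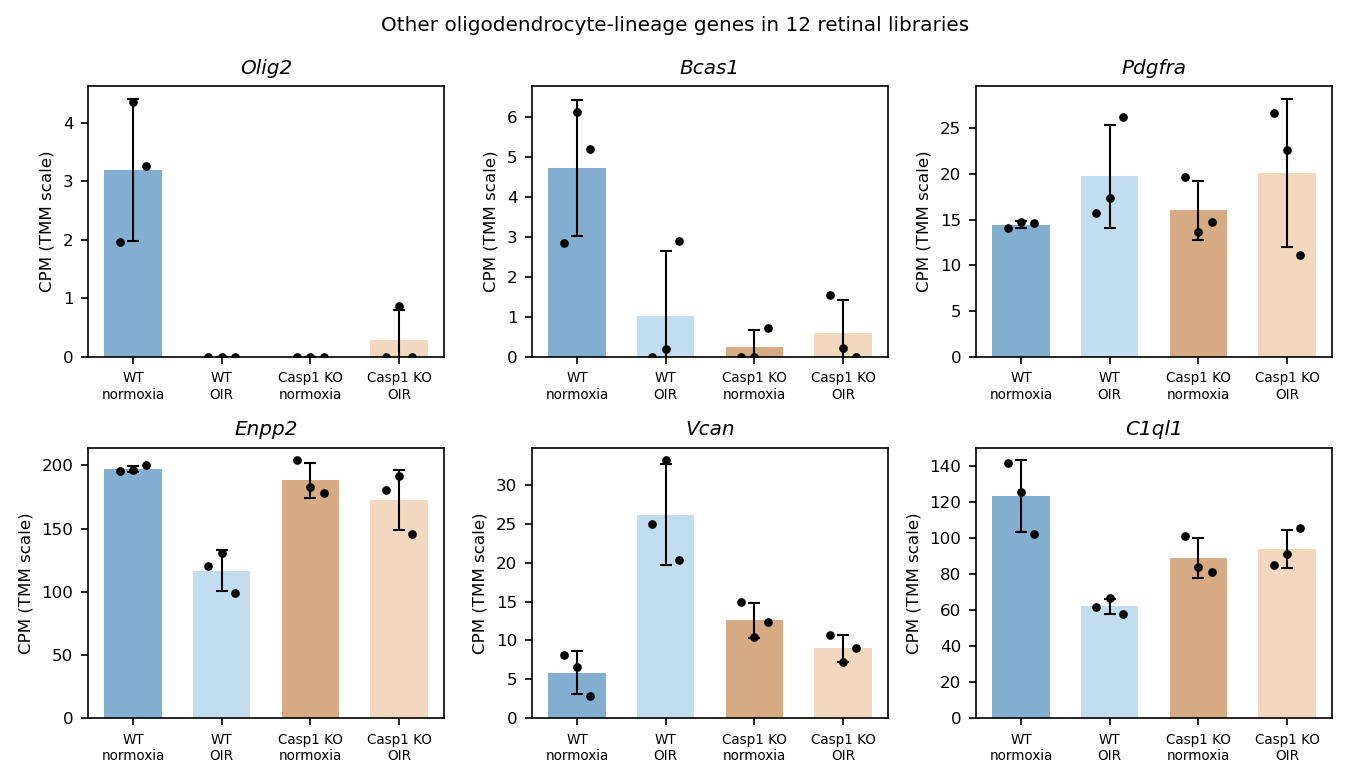
Levels in CPM on linear axes of 6 other lineage genes in the 4 groups, with points for libraries, bars for the mean and error bars for the SD of 3. Olig2 is 1.95 to 4.36 CPM in WT normoxia and at most 0.876 CPM elsewhere, while Pdgfra lies between 11.1 and 26.7 CPM throughout.

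Among the libraries labelled Casp1 KO, 1 of 52 genes fell in OIR and 2 rose, against 2.03% and 2.61% of all genes. Tspan2, a tetraspanin of the sheath, fell by 2.08 ± 0.54 with an adjusted p = 0.00562, a call lost without Casp1 KO normoxia replicate 2 at 0.107. Trf, which encodes transferrin, and Plekhb1 rose by 0.55 ± 0.09 and 0.65 ± 0.07. The median was 0.33, or 0.32 with genes at 0 at their bounds. For the label Casp1 KO against WT in OIR, 1 of 53 was lower and 2 higher, against 0.312% and 0.263% of all genes, with a median of 0.05, or 0.04 with the bounds. Vcan was lower by a log2 difference of -1.54 ± 0.29, and C1ql1 and Enpp2 higher by 0.60 ± 0.16 and 0.57 ± 0.14. The call of C1ql1, at an adjusted p = 0.0470, was kept under 4 of 14 alternatives and lost without any one of Casp1 KO OIR replicates 1 to 3 or WT OIR replicates 1 and 2. That of Enpp2 was kept under 9 of 14 and lost without Casp1 KO OIR replicate 1 or 2. That of Vcan was lost without WT OIR replicate 2, and 5 of the genes were called without WT OIR replicate 3.

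The interaction, the difference between the OIR effects in the 2 genotype labels, was called in 5 of 55 of these genes, 1 lower and 4 higher, against 0.527% lower and 0.604% higher of all genes. C1ql1 had an interaction of 1.07 ± 0.20 on the log2 scale with an adjusted p = 5.328e-05, and Vcan one of -2.61 ± 0.45 with an adjusted p = 6.615e-06. Without Casp1 KO normoxia replicate 2 or 3, or without Casp1 KO OIR replicate 2, 3 genes were called, and without WT OIR replicate 3 there were 8. The same 3 WT normoxia libraries enter these values and both comparisons above. The corresponding value for Mbp, a description only, was 1.87 ± 0.29.

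Several genes that define the lineage were not called in any comparison. Sox10, which directs myelin gene expression, had 2.17 to 3.56 CPM in WT normoxia and 0.222 to 3.91 CPM in the other libraries. Myrf, the factor needed for mature oligodendrocytes, had 3.91 to 5.86 CPM in WT normoxia and 2.01 to 10.4 CPM elsewhere. Olig1, a relative of Olig2, had 16, 31 and 4 counts in WT normoxia and 0 to 6 in each other library. The precursor genes Pdgfra and Cspg4 were also detected in every library, with log2 differences in WT OIR of 0.44 ± 0.28 and 0.74 ± 0.50. In OIR with the label Casp1 KO, Cspg4 differed by 1.58 ± 0.53 with an adjusted p = 0.0556. Opalin, Fa2h, Zfp488 and Carns1 were not called either, but their WT normoxia libraries all lay above the 9 others, as in 1.57% of all genes. Opalin had 15, 17 and 1 counts in WT normoxia and 0 in every other library, and Fa2h 9, 24 and 6 and at most 4. These genes were picked for that position, so nothing is read from it. Pdgfra, Sox10, Enpp2 and Trf are also expressed by other retinal or ocular cells. In Casp1 KO normoxia, where Olig2 had 0 counts, C1ql1 had 81.1 to 101 CPM, Sept4 111 to 125 and Plekhb1 559 to 580. Which cells these reads came from was not tested.

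Genes whose log2 level most resembled the mean of the 9 over the 12 libraries were ranked by Pearson's r among 15797 other genes with at least 50 counts. The values were 0.964 for Zfp365, 0.934 for Snord96a, 0.926 for Syt1 and 0.908 for Hspa5. Scgn, Scg3, Vstm2a, L3mbtl3, Pik3r3 and Grk1 followed at 0.898 to 0.879. Olig2 had an r of 0.8785 at rank 12, the highest of the lineage lists, and the lowest there was -0.63 at rank 15303. Olig1 had 0.57, Sox10 0.40, Myrf -0.04, Cspg4 -0.13 and Pdgfra -0.36. The gap between WT normoxia and the other groups sets most of the high values, and all points share the libraries and their depth. Zfp365 had 136 to 144 CPM in WT normoxia and 78.0 to 103 CPM elsewhere, a far smaller fold than that of Mag. Among the 9 genes, r with the mean of the other 8 was 0.958 for Mbp, 0.954 for Mag, 0.936 for Cldn11 and 0.910 for Mobp. It was 0.893 for Mal, 0.748 for Cnp, 0.742 for Mog, 0.624 for Ugt8a and -0.17 for Ermn.

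Markers of tissue next to the retina, including the optic nerve, were read in the same libraries. Astrocyte genes (6 genes), which the optic nerve head and the nerve fibre layer share, summed to 143 to 147 CPM in WT normoxia, 118 to 142 in Casp1 KO normoxia, 153 to 163 in WT OIR and 174 to 189 in Casp1 KO OIR. Of these, Gfap rose by 1.62 in WT OIR and by 2.31 in Casp1 KO OIR. Aqp4 had log2 differences of -0.87 in WT OIR and -0.73 in Casp1 KO normoxia. S100b had 56.5 to 77.0 CPM in Casp1 KO normoxia and 46.1 to 46.9 CPM in Casp1 KO OIR. Between these 2 groups 1 of the 6 was called lower and 1 higher in OIR, against 2.03% and 2.61% of all genes. The median log2 difference of the 6 was -0.60 in WT OIR and -0.23 in Casp1 KO normoxia. Which cells these reads came from was not tested. Pax2, a defining gene of optic nerve astrocytes, had 0.579 to 2.61 CPM in WT normoxia and 0.545 to 4.94 CPM elsewhere. Genes of sclera and meninges (8 genes) summed to 149 to 156 CPM in WT normoxia and 160 to 222 CPM in the other groups, with Igf2, the most abundant, at 64.6 to 77.8 CPM and 58.8 to 119 CPM of it. The median log2 difference of the 8 was 0.02 in WT OIR and -0.20 in Casp1 KO normoxia, and 0 of them were called in either. In OIR against normoxia with the label Casp1 KO, 2 of the 8 were higher and 0 lower, against 2.61% and 2.03% of all genes. Pigment epithelium genes summed to 673 to 724 CPM in WT normoxia, 759 to 790 in WT OIR, 737 to 769 in Casp1 KO normoxia and 1098 to 1169 in Casp1 KO OIR. In the same order, melanocyte genes had 285 to 320, 328 to 466, 359 to 378 and 580 to 654 CPM. Lens genes had 350 to 420, 216 to 458, 335 to 355 and 576 to 669 CPM. Eye muscle genes had 9.78 to 16.2, 10.7 to 19.1, 13.5 to 16.2 and 9.64 to 15.2 CPM.

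Schwann cell genes (7 genes) summed to 36.1 to 42.9 CPM in WT normoxia and 29.6 to 43.3 CPM elsewhere, with 0 of 6 tested called in either comparison. Prx, a defining gene of myelinating Schwann cells, had at most 1 count in any library, and Foxd3 had 0. Ganglion cell genes (10 genes) summed to 3232 to 3456 CPM in WT normoxia, 3551 to 3805 in Casp1 KO normoxia, 1600 to 1977 in WT OIR and 1927 to 2010 in Casp1 KO OIR. In OIR 7 of them fell in WT and 6 with the label Casp1 KO, against 2.29% and 2.03% of all genes. In normoxia 0 were lower and 1 higher with that label, against 0.56% and 0.476% of all genes. Müller glia genes (7 genes) were lower in Casp1 KO normoxia for 5 of 7 and in WT OIR for 2 of 7. The shares of all genes called lower there were 0.56% and 2.29%. In OIR with the label Casp1 KO, 6 of 7 rose and 1 fell, against 2.61% and 2.03% of all genes. Müller glia genes summed to 2751 to 2932 CPM in WT normoxia and 2186 to 2297 in WT OIR. With the label Casp1 KO their sums were 2012 to 2133 CPM in normoxia and 2862 to 3090 in OIR. How much optic nerve each retina carried is not given, and its part in the levels of the 9 genes was not tested.

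**Figure D4:**
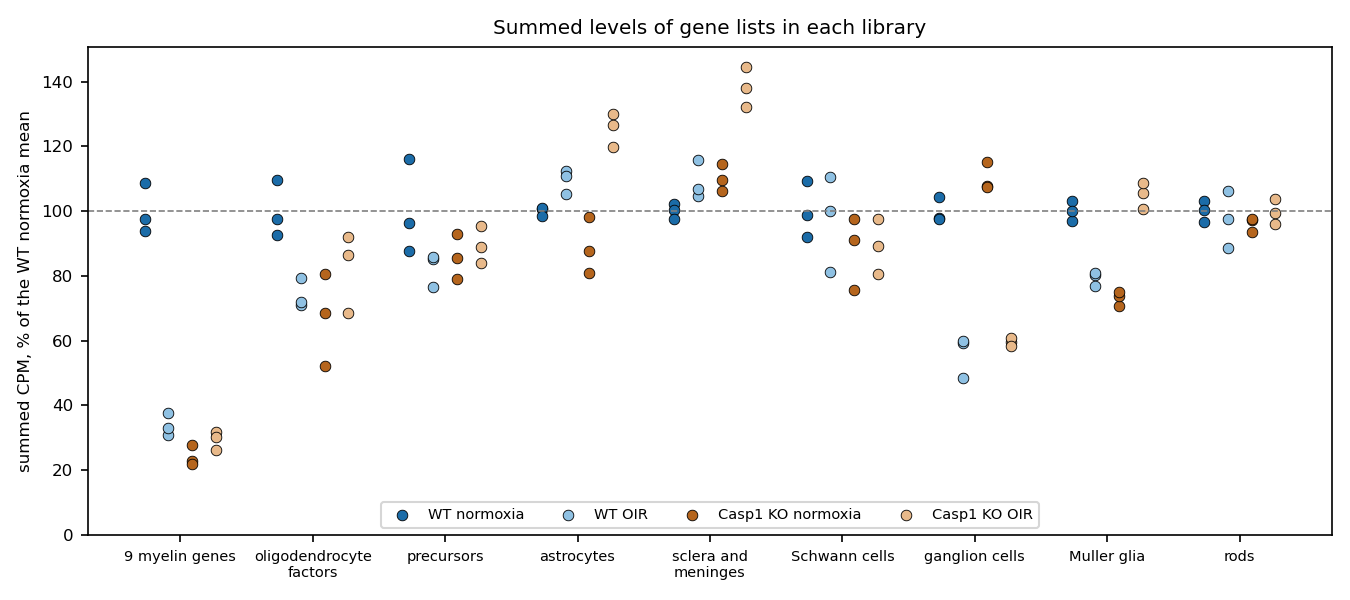
Summed CPM of gene lists in each library as a percent of the WT normoxia mean of that list, on a linear axis from 0, with colours for the 4 groups and the dashed line at 100%. The 9 myelin genes lie between 22.01% and 37.8% in all libraries outside WT normoxia. The astrocyte, sclera and meninges, Schwann cell and rod lists stay at 75.6% or above. The astrocyte sum includes Gfap, at 20.2 to 30.4 CPM in WT normoxia and 68.0 to 88.6 CPM in WT OIR. The median log2 difference of the 6 astrocyte genes in WT OIR is -0.60. In Casp1 KO normoxia the libraries span 52.2% to 80.5% for the oligodendrocyte factor list and 70.8% to 75.1% for the Müller glia list. In WT OIR the lowest library of the ganglion cell list is at 48.4% and that of the precursor list at 76.5%. The precursor sum includes C1ql1, called lower in WT OIR at a log2 difference of -0.999. Vcan of the same list is called higher there, at 2.10, and Pdgfra and Cspg4 are not called. The median log2 difference of the 8 precursor genes tested in WT OIR is -0.22. The precursor sum does not show the direction of each gene.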

How the data were processed

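The authors made QuantSeq 3' forward libraries from TRIzol-extracted retinal RNA, sequenced 75-base reads, aligned them to mm10 and counted reads per gene. The submitters' processing notes name STAR 2.7.5a, HTSeq 0.6.1 and edgeR. The deposited values are whole-number counts per gene symbol without normalization, and the gene annotation and strand setting are not given in the sources used here. Groups were taken from the labels. The 9 genes, the other lists and the tests were chosen with earlier results of these data known.

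Counts were fitted in R 4.3.3 with edgeR 4.0.16 (TMM, a minimum of 1 count per gene over the fitted libraries, the older quasi-likelihood method, prior count 0.125) and adjusted by Benjamini-Hochberg over all genes, with a threshold of 0.05. Each comparison used its own 6 libraries and the interaction all 12. Standard errors were the fold change divided by the root of F, and 95% intervals assume normal errors. Levels are CPM on the TMM scale of all 12 libraries. The pipeline was tested on simulated data. Genes named were all 9, Olig1, Olig2, Sox10, Myrf, Pdgfra and Cspg4, each lineage gene called in any comparison, and the 10 genes most like the mean of the 9 in log2 CPM (prior count 2). Opalin, Fa2h, Zfp488 and Carns1 were named for the position of their WT normoxia libraries. Marker genes of other cells are named as defining genes or where called. Of the lists, 2 genes are not reported here and were left out of the counts, medians and likeness ranking. Bounds are set against 3 counts over a group. Alternatives were DESeq2 size factors or library size alone, filterByExpr, at least 10 counts in every library, DESeq2 1.42.0, the likelihood ratio test, a replicate block, one fit to all 12 libraries, a prior count of 2 for single fold changes, and each library left out.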

Additional observations from a re-analysis of the deposited data

Results flagged for a closer look

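The effect of OIR differed between the genotype labels, by edgeR's test of the interaction, in 5 of the other lineage genes. On the log2 scale the difference, Casp1 KO less WT, was 1.07 for C1ql1 (adjusted p = 5.328e-05), 0.66 for Sept4 (0.0309), 0.63 for Enpp2 (0.0249) and -2.61 for Vcan (6.615e-06). Olig2 had a fitted value of 11.3 (adjusted p = 0.0122), which depends on the prior count because 2 of its groups held 0 counts, and its call was lost without WT normoxia replicate 2 or Casp1 KO OIR replicate 2. The interactions of C1ql1 and Vcan were called under all 19 alternatives, those of Enpp2 and Sept4 under 11 and 10. Whether the reads of C1ql1, Sept4, Enpp2 and Vcan came from oligodendrocytes or from other cells was not tested.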

How the results depend on the processing

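No member was called in OIR against normoxia with the label Casp1 KO under any of 14 alternatives, and in the label Casp1 KO against WT in OIR 1 was called, Mobp, with all 12 libraries in one fit. That fit includes the WT normoxia libraries. With 3 libraries a group and counts near 0, the intervals of Mobp and Mag among the lower groups were wide, which limits what their tests could show. Signs turned with single libraries left out. Mbp in Casp1 KO OIR against normoxia was -0.00992 without Casp1 KO OIR replicate 2 and -0.0434 without Casp1 KO normoxia replicate 3 (lowest -0.0434, highest 0.11). Mobp there was 0.34, 0.11 and 1.72 without Casp1 KO OIR replicate 1 or 2 or Casp1 KO normoxia replicate 3 (lowest -2.12, highest 1.72). Mog in the label Casp1 KO against WT in OIR was 0.35 without WT OIR replicate 1 (lowest -1.70, highest 0.35).

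Counts of other lineage genes called for OIR against normoxia stayed within 1.5 times of 8 in WT and of 3 with the label Casp1 KO. For that label against WT in normoxia, 4 became 2 with filterByExpr or all 12 libraries, 1 with a minimum of 10 counts in each, and 1 to 4 with a library left out. Against WT in OIR, 3 became 1 with filterByExpr, at least 10 counts or the likelihood ratio test, and 1 to 5 with a library left out. The interaction count of 5 became 2 with filterByExpr or at least 10 counts, which test fewer genes, and 3 to 8 with a library left out. Otherwise the cause was not tested.

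Same-numbered libraries deviated together with r of -0.05 to 0.07, so no pairing by number was seen. With 3 libraries a group, these values cannot exclude a shared origin of same-numbered libraries. With the replicate block, 9, 4, 3, 2 and 6 other lineage genes were called in the order WT OIR, Casp1 KO OIR, Casp1 KO against WT in normoxia, the same in OIR and the interaction, and 0 members in both tested comparisons.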
